A study of Homo sapiens with 36 samples.

Results

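H3K27ac was compared between POSR2 cells and untreated POS cells, 2 libraries against 3, which are 5 of the 36 samples of the series. Both groups derive from SUM-229PE cells, which were established from the pleural effusion of a triple-negative breast cancer, and POS denotes the cells that carried EpCAM and CD49f when the line was sorted by flow cytometry. EpCAM is an epithelial adhesion molecule and CD49f is the integrin alpha 6 chain. The 3 untreated POS libraries are the DMSO vehicle controls of a 24 hour experiment with trametinib, an inhibitor of the kinase MEK. The 2 POSR2 libraries carry no treatment in their labels, which also do not say how POSR2 or its counterpart POSR1 (2 libraries) arose, whether each is 1 clone, or whether drug was present at collection. The libraries of the 2 groups were taken by those labels, and the POSR1 libraries stayed out of the comparison with POS and were used only for a direct comparison with POSR2. The identity of the cells was not checked against marker genes, since no annotation of the build was used here.

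H3K27ac is acetylation of lysine 27 on histone H3, a mark that acetyltransferases place on nucleosomes flanking active promoters and enhancers. It is read by immunoprecipitating fragmented chromatin and sequencing the recovered DNA, so a region's count follows the amount of its DNA that carried the mark. In these bulk samples, fewer cells carrying the mark and less mark per cell cannot be told apart. JUNB, which was profiled in untreated cells of the series, is a subunit of AP-1, a transcription factor that binds enhancers and acts downstream of the MEK and ERK kinases. JUNB was not profiled in POSR2.

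The libraries held 4537976 to 8737463 counts in 53549 regions of 1001 bases, and the median region had 50 to 76 counts. The POS library of replicate 2 was the shallowest. Across regions, log2 levels of the 2 POSR2 libraries correlated with r = 0.982, those of the 3 POS libraries with r of 0.962 to 0.978, and POSR2 with POS libraries with r of 0.783 to 0.809. These correlations describe regions of shared sequence composition and are not a test. The labels do not give separate cultures for the replicates, so the spread between libraries could be technical. The p-values and SEs of POSR2 against POS use a spread pooled over regions, not that of the libraries at each region. Levels are given as CPM, counts in regions scaled by library total and TMM factor, and coordinates are those of the deposited files on hg19.

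H3K27ac in POSR2 differed from untreated POS at 29760 of 53423 regions tested (55.7%), with gains and losses in similar number. The mark was higher in POSR2 at 14538 regions (27.2%) and lower at 15222 (28.5%), by edgeR's quasi-likelihood test at a Benjamini-Hochberg adjusted p under 0.05. The change was 2-fold or more at 13911 regions (26%), of which 5904 were higher (11.1%) and 8007 lower (15%). Large gains and large losses were unevenly matched, because 97 regions rose 16-fold or more and 38 fell as far, whereas 1323 rose and 1893 fell 4-fold or more. The median log2 fold change over all tested regions was -0.01, with quartiles of -0.62 and 0.53. In 18338 regions (34.3%) both POSR2 values lay above all 3 POS values, and in 18476 (34.6%) both lay below. A low-count filter left out 126 regions.

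**Figure D1:**
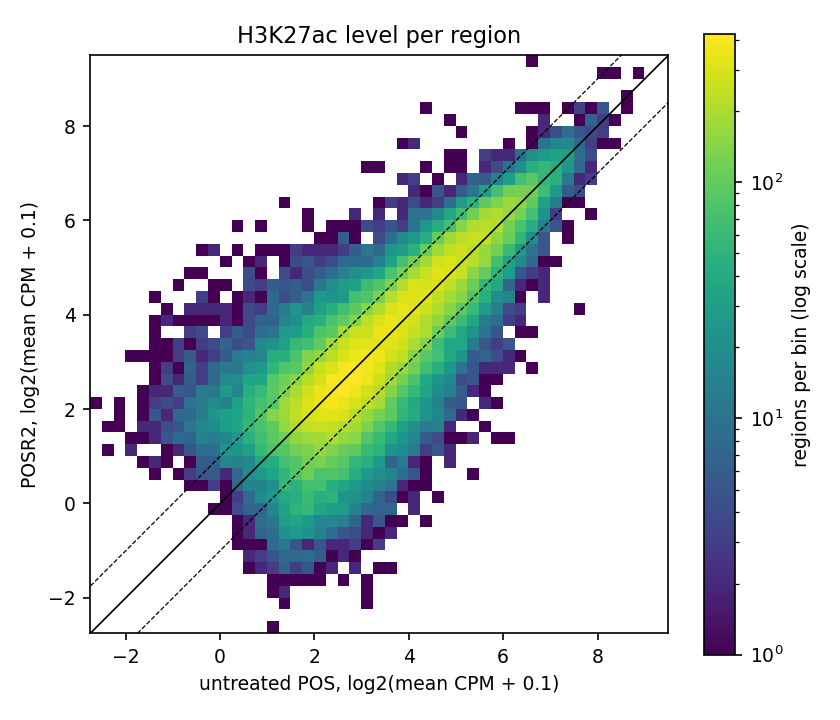
Density of tested regions by mean H3K27ac level in untreated POS (x axis, 3 libraries) and POSR2 (y axis, 2 libraries), both as log2(CPM + 0.1), with regions per bin on a log colour scale. The solid line marks equal levels and the dashed lines a 2-fold difference, and 5904 called regions lie 2-fold or more above and 8007 below.

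Median levels of the 2-fold higher regions were 3.83 CPM in POS and 11.6 CPM in POSR2, against 9.62 and 3.11 CPM for the 2-fold lower regions and 9.61 and 9.19 CPM for all tested regions. All called gains had a median of 8.90 CPM in POS and all called losses of 12.6 CPM. The POS level also enters the fold change, so these levels are a description. Regions were split into 5 quintiles of equal size by POS level. In the lowest quintile, 36.0% were higher and 9.97% lower in POSR2. In the highest quintile, 22.0% were higher and 31.2% lower. A split by the mean level of all 5 libraries gave 19.6% higher and 22.8% lower in the lowest quintile and 30.7% and 23.0% in the highest, so the order of gains and losses depends on which level is used. The deposited region names each give 1 library in which a peak was called. They do not say whether other libraries also had a peak there. Of the 2-fold higher regions, 65.1% were named for a POSR2 peak and 10.5% for a POS peak, against 1.89% and 88.0% of the 2-fold lower regions. Over all tested regions the shares were 19.9% and 61.5%, and a region chosen for a high level in 1 group will tend to be named for a peak of that group.

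The 3 regions with the highest POS level carried no call. At chr8:126231498-126232499, POS libraries had 501, 390 and 433 CPM and POSR2 libraries 527 and 563, a log2 difference of 0.30 ± 0.27 (SE). At chr9:21591081-21592082 and chr8:128306251-128307252 the log2 differences were -0.15 ± 0.26 and -0.10 ± 0.26. The highest adjusted p among the 3 by edgeR's test was 0.76, which does not show that the levels were equal.

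Among regions of at least median level, the 10 largest gains whose groups did not overlap had mean POS levels of 0.426 to 2.35 CPM and POSR2 levels of 25.2 to 86.2 CPM. These regions met the minimum mean level through POSR2 and were ranked by fold, so low POS levels follow from the choice. At chr19:28463151-28464152, POS libraries had 0, 0.817 and 0.461 CPM and POSR2 libraries 26.9 and 23.6 CPM. The log2 fold change of 6.08 ± 0.29 (SE; edgeR, Benjamini-Hochberg adjusted p = 1.1e-94) rests on few POS counts. At chrX:124677765-124678766, POS had 0.24, 1.23 and 0.614 CPM and POSR2 41.8 and 39.6, a log2 fold change of 6.02 ± 0.23. POSR1 was also high there, at 27.5 and 34.1 CPM.

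Other gains were found in POSR2 with little or no mark in POSR1. At chr7:70193932-70194933, POS had 0.36, 2.04 and 0.768 CPM, POSR2 35.5 and 35.9, and POSR1 0.702 and 0.119. POSR2 thus stood apart from both other groups, with log2 fold changes of 5.26 ± 0.22 over POS and 6.44 ± 0.29 over POSR1. At chr10:36560424-36561425, POS had 1.32, 0.409 and 0.922 CPM, POSR2 37.8 and 48.6, and POSR1 2.25 and 0.955. The POSR2 libraries differed more from each other here than at chr7:70193932-70194933, yet neither came near the other groups, and the log2 fold changes were 5.46 ± 0.21 over POS and 4.76 ± 0.21 over POSR1. At chr16:34832865-34833866, POS had 0.36, 1.02 and 1.23 CPM, POSR2 39.8 and 39.0, and POSR1 2.25 and 2.51. The 2 POSR2 libraries were nearly equal, and exceeded POSR1 by 4.02 ± 0.20 on the log2 scale.

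The other 5 named gains ranged in log2 fold change from 5.03 ± 0.25 at chr4:64077026-64078027 to 5.87 ± 0.27 at chrX:112211041-112212042, with chr20:30815030-30816031, chr2:6342361-6343362 and chrX:143715333-143716334 between them. The region on chromosome 20 reached the highest level of the 10, at 88.7 and 83.7 CPM in POSR2 against 1.32, 3.88 and 1.84 in POS. POSR1 was intermediate there, at 14.2 and 13.4 CPM. At chrX:143715333-143716334, POSR1 was higher than POSR2, with 53.6 and 52.9 CPM against 27.5 and 30.4 (log2 difference -0.90 ± 0.15). By the direct test, 8 of the 10 named gains were above POSR1 and 2 below, against 21.2% and 19.3% of all regions. The named gains were picked for high values in the same POSR2 libraries, so this count is a description. Only the region on chromosome 19 held a JUNB site, against 77.6% of all tested regions and 60.1% of the 2-fold higher regions. Sites were mapped in untreated cells only, and 43.9% of regions in the lowest quintile of POS level held one. Among 18 regions with at most 1 CPM in every POS library and at least 10 in each POSR2 library, 27.8% held one. None of the 10 matched a region listed for POS cells on days 0 and 14 of trametinib, and neither did any of those 18. Of all tested regions 58.0% did. The 10 were chosen with low POS levels, so these counts are a description.

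The 10 largest losses, chosen by the same rule, had mean POS levels of 17.3 to 73.9 CPM and POSR2 levels of 0.642 to 2.61 CPM. At chr15:62086503-62087504, POS had 80.7, 62.5 and 78.6 CPM and POSR2 2.54 and 2.67 CPM. The groups were far apart, with a log2 fold change of -4.82 ± 0.24 (edgeR, Benjamini-Hochberg adjusted p = 8.7e-90), and POSR1 was as low, at 2.53 and 1.91 CPM. At chr2:2665388-2666389, POS had 21.5, 20.4 and 19.8 CPM and POSR2 0.484 and 0.801, the largest named loss at -4.98 ± 0.28. Its POS libraries were close to each other, and POSR1 again resembled POSR2, at 0.702 and 0.358 CPM. At chr3:180138488-180139489, POS had 55.6, 50.2 and 58.1 CPM and POSR2 2.66 and 2.13, a log2 fold change of -4.50 ± 0.22. POSR1 kept somewhat more mark there, with 9.97 and 7.40 CPM.

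One named loss was found in POSR2 and not in POSR1. At chr10:134480682-134481683, POS had 25.9, 17.8 and 21.8 CPM, POSR2 1.21 and 1.20, and POSR1 17.8 and 18.7. POSR2 lay below both groups, by -4.19 ± 0.24 against POS and -3.92 ± 0.26 against POSR1, whereas POSR1 values lay at the lower edge of the POS range. The other 6 named losses lay between -4.08 ± 0.27 at chr9:79192005-79193006 and -4.78 ± 0.23 at chr7:43424841-43425842. They included chr21:39695594-39696595, chr5:97444158-97445159, chr1:54043968-54044969 and chr9:121814574-121815575. In the direct test, 4 of the 10 named losses were below POSR1 and none above, a description for the same reason. JUNB sites lay in 9 of the 10, near the shares of 77.6% over all tested regions and 83.3% over the lower regions.

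**Figure D2:**
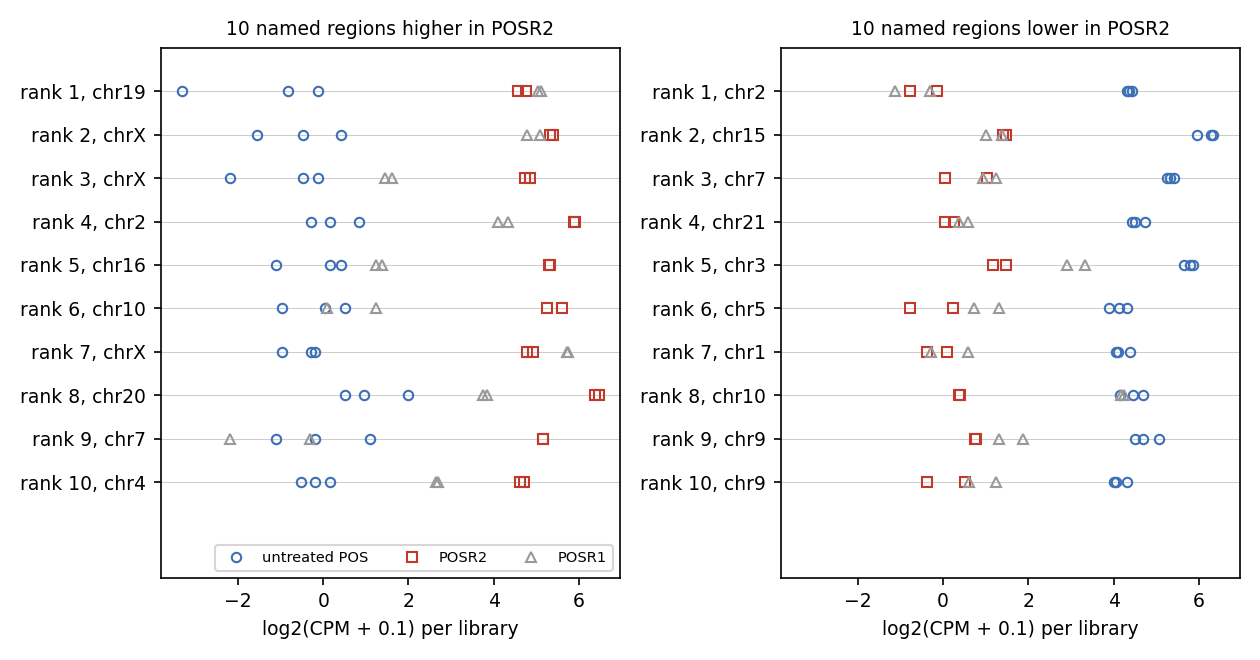
H3K27ac level of each library as log2(CPM + 0.1) (x axis) at the 10 named regions higher and the 10 named regions lower in POSR2 (y axis, rank and chromosome), with circles for untreated POS, squares for POSR2 and triangles for POSR1. Regions were chosen so that POSR2 and POS values do not overlap, and POSR1 lies beside POSR2 in some regions and beside POS in others.

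POSR2 was then compared directly with POSR1, in a fit of all 7 libraries, to show where its chromatin differed from the most similar group. Of 53524 regions tested, 21671 (40.5%) differed by edgeR's test, of which 11337 were higher in POSR2 (21.2%) and 10334 lower (19.3%). A 2-fold or larger difference was called at 9463 (17.7%), with 5344 higher (9.98%) and 4119 lower (7.7%). Of the 53524 regions, POSR2 lay above every POS and POSR1 library and was called in both tests at 5842, and below every one of them at 5093. Against POS alone and without regard to calls, POSR2 values lay above all POS values at 34.3% of regions and below at 34.6%. The 2 tests share the POSR2 libraries, so these counts are a description.

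The region chr16:79104794-79105795 shows a pattern in which POSR1 was low while POSR2 was not. POS had 15.2, 13.7 and 13.7 CPM, POSR2 25.7 and 18.7, and POSR1 0.843 and 0.836. POSR2 exceeded POSR1 by 4.68 ± 0.27 on the log2 scale and POS by only 0.64 ± 0.14. The region chr7:158189553-158190554 had the same order, with 14.8, 13.7 and 12.1 CPM in POS, 19.2 and 19.1 in POSR2 and 0.421 and 1.43 in POSR1. At chr15:58684292-58685293, by contrast, POS and POSR1 were both low, at 1.02 to 2.00 and 1.19 to 2.11 CPM, and only POSR2 was high, at 32.8 and 31.4 CPM.

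Among named regions below POSR1, chr11:75741418-75742419 had 7.80, 6.54 and 9.37 CPM in POS, 1.45 and 0.801 in POSR2 and 19.2 and 22.3 in POSR1. POSR2 and POSR1 lay on opposite sides of POS there, with POSR2 lower than POSR1 by -4.19 ± 0.26 and lower than POS by -2.79 ± 0.37 on the log2 scale. At chr14:29708729-29709730, POS had 51.4, 40.9 and 53.3 CPM, POSR2 2.91 and 3.47, and POSR1 42.3 and 47.5. The mark was thus retained at POS level in POSR1 and nearly absent in POSR2, a log2 difference from POSR1 of -3.84 ± 0.23. At chr8:22907373-22908374, POSR2 had 1.21 and 1.73 CPM against 19.0 and 16.4 in POSR1 and 10.4 to 14.5 in POS.

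Changes in POSR2 were clustered along chromosomes. Where neighbouring regions within 10 kb were both called, 4879 of 5574 pairs (87.5%) moved the same way, against 50.0% if directions were independent of position. This share was not counted for another comparison, so it is not read as particular to POSR2. Runs of at least 10 consecutive regions called in 1 direction numbered 58 for gains and 72 for losses. The longest run of gains held 35 regions over 2165 kb at chr12:23678561-25843754, all of them 2-fold or more higher, with a median log2 fold change of 2.58. Levels in this paragraph and the next are means over regions, scaled over the 7 libraries. Over the run, POS libraries averaged 21.9, 21.0 and 21.4 CPM, POSR2 libraries 115 and 119, and POSR1 libraries 192 and 188. Its strongest region, chr12:25395248-25396249, had a log2 fold change of 4.07 ± 0.20 over POS (edgeR, Benjamini-Hochberg adjusted p = 1.6e-89).

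POSR2 and POSR1 differed in where the high mark began on chromosome 12 and in its level further along. The run's first 2 regions, within chr12:23678561-24220237, averaged 3.59 and 4.14 CPM in POSR2 against 1.06 to 2.45 in POS and lay apart. The rest of the run and what follows it were read in 4 stretches, which were set apart after their values were seen. In the first, chr12:24948440-25101165, all 7 regions were higher in POSR2 than in POSR1, by a median log2 of 3.16. POSR2 averaged 123 and 127 CPM, whereas POSR1, at 14.2 and 15.1 CPM, lay between the lowest and the highest POS library. In the second, chr12:25170281-25843754, the order of the 2 was reversed, with 122 and 126 CPM in POSR2, 254 and 248 in POSR1 and 23.7 to 25.8 in POS. Of its 26 regions, none was higher and 19 were lower in POSR2 than in POSR1, and all 26 were higher than in POS. In the third, chr12:25846966-25993286, POSR2 averaged 22.1 and 21.5 CPM against 11.9 to 14.7 in POS, while POSR1 stayed at 107 and 105. All 10 regions there were lower in POSR2 than in POSR1, by a median log2 of -2.83. Against POS, 4 of them were higher in POSR2 and 2 lower, with a median log2 fold change of 0.27. The lower regions included chr12:25852269-25853270, at -1.07 ± 0.22. In the fourth, chr12:26055976-26528042, both were above POS again, with 54.1 and 53.3 CPM in POSR2, 85.6 and 85.7 in POSR1 and 23.8 to 24.5 in POS. Input libraries, which read DNA content, were not used here, so the levels are not corrected for DNA content.

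**Figure D3:**
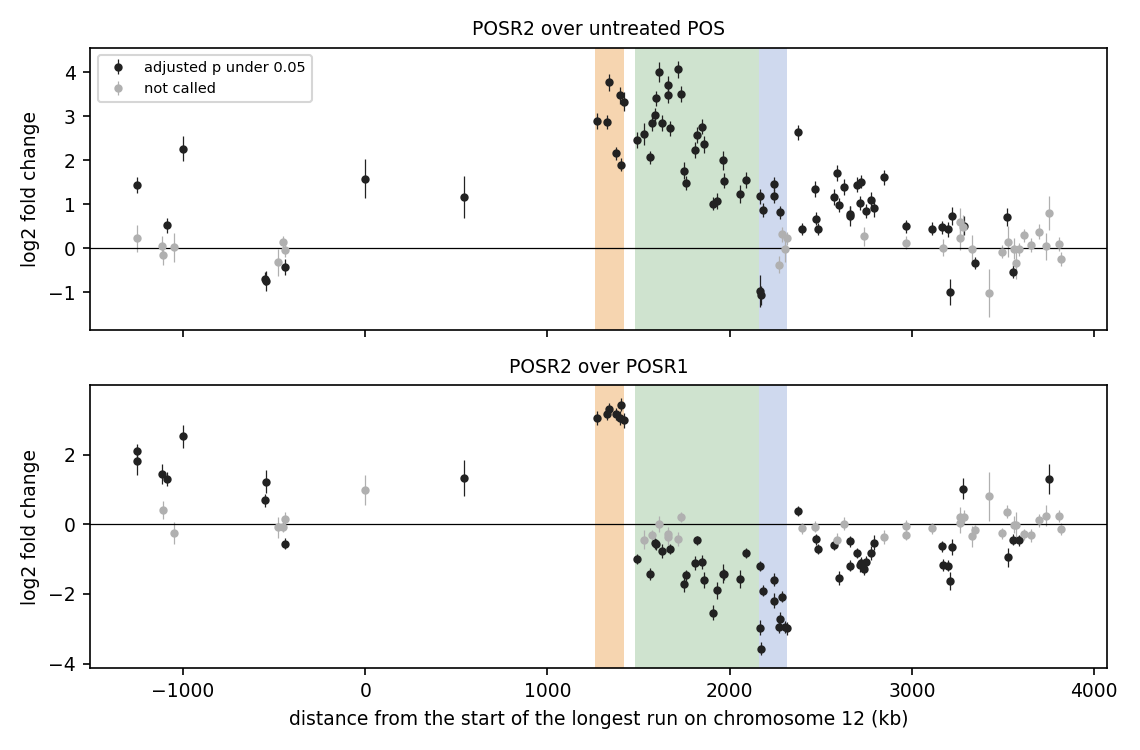
Log2 fold change of POSR2 over untreated POS (top) and over POSR1 (bottom) for each tested region against distance in kb from the start of the chromosome 12 run, with bars for SE, black points for adjusted p under 0.05 and grey points for regions not called. Shading marks the first 3 stretches, in which the median log2 difference from POSR1 was 3.16, -0.91 and -2.83.

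The other long runs of gains lay at chr3:105153-3169324, with 28 regions, and chr10:8224991-8872636, with 26. In the chromosome 3 run the median log2 fold change was 3.12, from 1.09 to 1.30 CPM in POS to 7.68 and 8.25 in POSR2. POSR1 was intermediate, at 4.34 and 4.16 CPM, and 17 of the 28 regions were higher in POSR2 than in POSR1. The chromosome 10 run had a median log2 fold change of 1.80, with POSR1 at 14.1 and 15.5 CPM and both POSR2 libraries at 16.9 CPM. Of its 26 regions, 12 were higher and 5 lower in POSR2 than in POSR1.

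The longest run of losses, chr14:28571958-30124943, held 28 regions with a median log2 fold change of -1.90. POS libraries averaged 28.6, 23.9 and 27.6 CPM, POSR2 libraries 7.78 and 8.62, and POSR1 libraries 17.4 and 18.4. The 3 groups did not overlap, and 20 of the 28 regions were lower in POSR2 than in POSR1 with none higher. Runs of 24 regions at chr3:174668247-176567060 and 22 regions at chr1:193290762-194037335 had median log2 fold changes of -1.46 and -1.36. In both, POSR1 averages lay between those of POSR2 and POS.

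Chromosomes differed in the balance of gains and losses. On chromosome 19, 51.1% of 1048 regions were higher and 8.68% lower in POSR2 than in POS, with a median log2 fold change of 0.51. Chromosome 14 was the reverse, with 12.6% of 1632 regions higher, 42.8% lower and a median of -0.37. These 2 differed in their relation to POSR1: the median log2 difference of POSR2 from POSR1 was -0.01 on chromosome 19 and -0.43 on chromosome 14, where 42.0% of regions were lower in POSR2 than in POSR1. Chromosomes 1 and 5 also leaned to losses, with 39.3% and 38.1% of regions lower, and chromosome 20 leaned to gains, with 40.8% higher.

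Within chromosomes, windows of 10 Mb with at least 50 regions were summarised by their median. Of 290 windows, 15 had a median log2 fold change of 0.5 or more and 10 of -0.5 or less. The highest was chromosome 13 from 60 to 70 Mb, where 54 of 75 regions rose and 5 fell, with a median of 1.86. Mean levels there were 3.13, 3.02 and 3.25 CPM in POS, 6.34 and 6.29 in POSR2 and at least 7.71 in POSR1, so POSR1 was also above POS. These levels were low, and the median gives each low region the same weight. The lowest was chromosome 1 from 190 to 200 Mb, where 132 of 186 regions fell and 12 rose, with a median of -0.84. Mean levels were 21.5, 19.6 and 20.7 CPM in POS, 12.6 and 13.0 in POSR2, and 16.2 and 17.4 in POSR1. Levels of chromosomes and windows, as those on chromosome 12, were not corrected for DNA content.

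**Figure D4:**
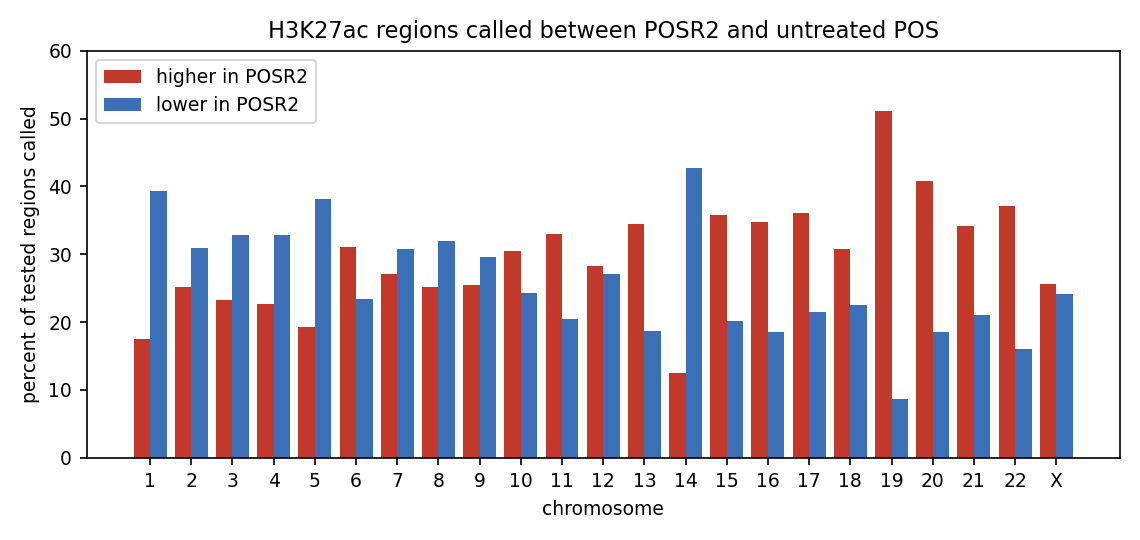
Percentage of tested H3K27ac regions called higher (red) or lower (blue) in POSR2 than in untreated POS at an adjusted p under 0.05 (y axis), for each chromosome (x axis). Chromosome 19 has 51.1% higher and 8.68% lower regions, and chromosome 14 has 12.6% and 42.8%.

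JUNB sites mapped in untreated POS and NEG cells were set against these changes, since AP-1 binding is measured in libraries that do not enter the H3K27ac comparison. NEG cells are the sorted fraction that lacks EpCAM and CD49f. A site of 201 bases was assigned to a region when at least 50% of it lay inside. Of all tested regions 77.6% held a site, against 74.8% of the higher regions, 83.3% of the lower regions and 75.7% of those not called. Among 2-fold changes the shares were 60.1% of higher and 78.3% of lower regions.

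Sites were more frequent in strongly marked regions, with 45.8% of regions in the lowest quintile of mean level and 94.2% in the highest holding one. Within quintiles of that mean level over the 5 libraries, 2-fold higher regions held sites less often than 2-fold lower regions in every quintile, from 32.4% against 50.0% in the lowest to 91.0% against 96.0% in the highest. Within quintiles of the POS level, however, the shares were 41.2% against 32.9% in the lowest, 86.7% against 85.7% in the third and 91.5% against 95.8% in the highest. No single direction therefore held across both ways of splitting.

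Regions were then grouped by the subpopulation in which JUNB bound more, since 25.1% of 141580 sites tested were 2-fold or more higher in POS and 25.5% in NEG. Of 5702 regions whose strongest site was 2-fold or more higher in NEG cells, 22.3% rose and 40.7% fell in POSR2. Of 15521 regions whose site was 2-fold or more higher in POS cells, 29.8% rose and 26.8% fell, and of 11960 regions without a site 30.7% rose and 21.3% fell. The other 20240 regions with a site rose in 24.6% and fell in 30.6%. The order of the shares that rose depended on the threshold. For H3K27ac changes of 2-fold or more, 11.9% rose where the site was higher in NEG and 9.83% where it was higher in POS. The shares that fell were then 26.1% and 12.6%. In each quintile of the mean level, regions with a NEG-biased site fell more often than regions with a POS-biased site, from 28.6% against 23.0% in the lowest quintile to 39.8% against 19.7% in the highest. The same order held in each quintile of the POS level, from 10.9% against 6.45% to 53.9% against 27.4%. The share that rose was lower for NEG-biased sites in quintiles 2 to 5, and higher in the lowest quintile, at 23.3% against 13.8%. Regions with 3 or more sites were few, at 166, and 44.6% of them rose and 12.7% fell.

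Among the named losses, chr5:97444158-97445159 held a NEG-biased site at chr5:97444336-97444537, with 2.46 and 4.41 CPM of JUNB in POS and 34.1 and 26.6 in NEG. At chr9:121814574-121815575 the site was POS-biased, with 8.90 and 11.3 CPM in POS and 0.356 and 0.35 in NEG. Of the 10 named losses, 3 held a POS-biased and 2 a NEG-biased site, beside 29.1% and 10.7% of all tested regions, and nothing is read from counts this small.

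Finally, the POSR2 changes were set beside those of POS cells given 10 nM trametinib for 14 days, which were measured in 4 other libraries (2 at day 14 and 2 at day 0). In that comparison 77.8% of 44304 regions were called by edgeR's test, 39.5% higher and 38.2% lower at day 14, and 52.9% with a change of 2-fold or more. Of 30994 regions matched between the tables, 14401 were called in both tables, and 11593 of these (80.5%) shared their direction. Where both changes were 2-fold or more, 4306 of 4618 (93.2%) moved the same way. Over all matched regions 68.2% had the same sign, and Pearson's r across regions was 0.53 and Spearman's rho 0.52. The points share no library between the axes, but they share regions and base composition. The matched 2-fold lower regions had a median day 14 log2 fold change of -1.58 and the 2-fold higher regions of 1.20, against -0.21 over all matched regions.

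Of lower regions that could be matched, 72.5% were also lower at day 14, against 43.5% of all matched regions, and of higher regions 55.5% were also higher, against 32.6%. All 10 named losses were lower at day 14, whereas no named gain had a matched region. Matches were found for 58.0% of all tested regions, 49.2% of the 2-fold higher and 49.1% of the 2-fold lower. The named losses were chosen with high POS levels and the named gains with low ones, so this contrast is not read as a result. At chr15:62086503-62087504, day 0 libraries had 45.0 and 42.8 CPM and day 14 libraries 2.95 and 1.96, a log2 fold change of -4.14 ± 0.22. The log2 fold change of POSR2 over POS there was -4.82 ± 0.24, and CPM were scaled separately in the 2 comparisons. At chr2:2665388-2666389 the day 14 loss was small by comparison, from 25.0 and 19.7 CPM to 12.4 and 13.5 (log2 fold change -0.82 ± 0.18).

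Regions with large changes in both comparisons were picked after their values were seen. At chr2:39366447-39367448, POSR2 libraries had 53.9 and 58.3 CPM against 3.00, 4.09 and 3.53 in POS, and day 14 libraries 75.1 and 89.6 against 3.21 and 4.79 at day 0. Both comparisons rose about equally, by log2 4.01 ± 0.18 and 4.42 ± 0.20, and POSR2 did not differ from POSR1 by the test (log2 -0.03 ± 0.16). At chr10:107173674-107174675 both fell, from 17.2, 12.7 and 11.8 CPM in POS to 0.968 and 0.400 in POSR2, and from 10.5 and 12.6 at day 0 to 0.554 and 0.196 at day 14.

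A smaller group moved in opposite directions. Of regions changed 2-fold or more in both comparisons, 173 were higher in POSR2 and lower at day 14, and 139 were lower in POSR2 and higher at day 14. At chrX:141338321-141339322, POSR2 had 40.4 and 36.3 CPM against 8.52, 3.68 and 5.68 in POS, while day 14 libraries had 2.22 and 1.37 against 17.3 and 11.1 at day 0. The log2 fold changes were 2.60 ± 0.15 and -3.01 ± 0.34, with no overlap of groups in either table. At chr1:39199267-39200268 the order was reversed, with 2.06 and 1.60 CPM in POSR2 against 7.20, 9.60 and 7.99 in POS, and 38.8 and 34.1 CPM at day 14 against 3.03 and 5.39 at day 0. JUNB sites lay in 90.2% of the 173 regions and 79.1% of the 139, against 62.6% of the 1630 regions higher in both and 93.5% of the 2676 lower in both. The share was 77.6% over all tested regions. These groups were not matched for level, with which the share of regions holding a site rises.

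**Figure D5:**
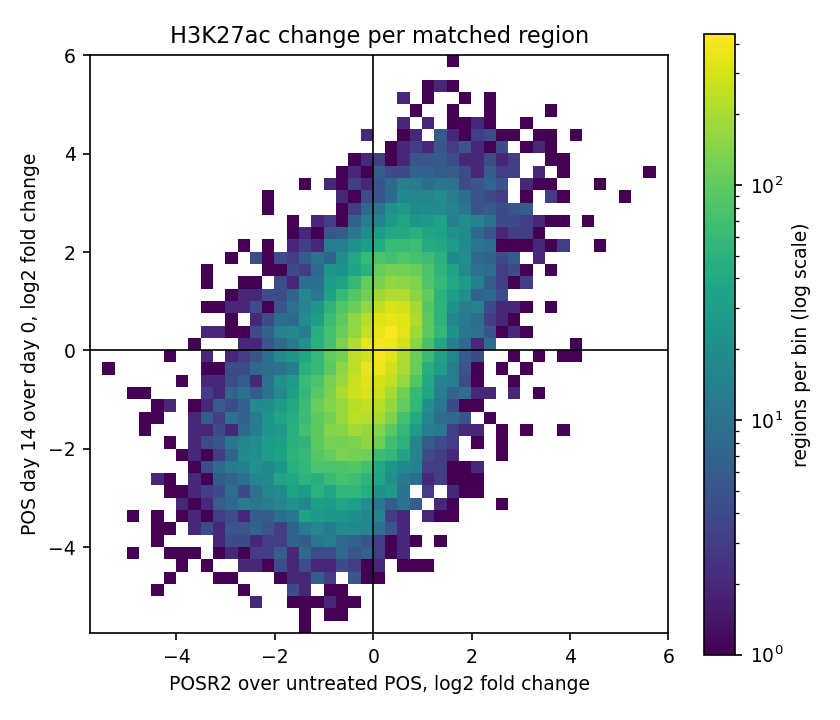
Density of 30994 matched regions by log2 fold change of POSR2 over untreated POS (x axis) and of POS day 14 over day 0 of trametinib (y axis), with regions per bin on a log colour scale. The regions form a broad cloud with a rising tilt (Pearson's r = 0.53), in which 68.2% have the same sign in both comparisons.

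The changes were also set beside those of trametinib in NEG cells. Beside NEG day 14 against day 0, in which 48.6% of regions were called, 3418 of 4674 regions past the threshold in both tables (73.1%) shared their direction, with r = 0.30 over 16030 matched regions. Beside NEG cells given 30 nM trametinib for 24 hours, in which 36.5% were called, 4500 of 5653 (79.6%) did, with r = 0.42 over 19283. The 3 sets of matched regions differ in size and in depth, and the difference between these relations was not tested. The POS cells given 30 nM for 24 hours share their DMSO libraries with this comparison, so only single values are set side by side. At chr15:62086503-62087504 the acute log2 fold change in POS was -3.54, and at chr2:2665388-2666389 it was -0.10, against -4.82 and -4.98 in POSR2.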

How the data were processed

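ChIP-seq libraries for H3K27ac were mapped and counted by the authors. Per the submitters' processing notes, the tools included STAR 2.5.2b and cutadapt 1.12, with MACS2, featureCounts and DESeq2, and the build was hg19. How each was set is not given in the sources used here. Deposited by the authors were whole-number raw counts per region and library, with a union of MACS2 regions for each table, whose start convention (0-based or 1-based) is not stated in the headers. The authors' deposited DESeq2 tables were not used here.

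Counts were tested with edgeR 4.0.16 in R 4.3.3: default filter with a minimum count of 10, TMM scaling, quasi-likelihood test without a replicate block, Benjamini-Hochberg adjustment over all regions tested and a threshold of 0.05. POSR2 against POS used 5 libraries, and POSR2 against POSR1 used 7. SE is the log2 fold change divided by the square root of F. Tables were normalized separately, and CPM of POSR1 come from the scaling over 7 libraries. JUNB sites were assigned by 50% overlap, and regions of other tables were matched 1 to 1 by 50% reciprocal overlap. The script was tested on simulated counts.

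The members and lists were chosen with earlier results of these data known. Named regions had an adjusted p under 0.05, a mean level no lower than the median and groups that did not overlap (8550 higher, 7706 lower), and were ranked by absolute log2 fold change at least 1000000 bases apart: 10 per direction, and 5 per direction against POSR1 with POSR2 beyond both groups. The 3 longest runs per direction and the 3 regions of highest POS level were named as well. The chromosome 12 stretches, the level classes and the day 14 examples were chosen after their values were seen. No gene names or sequences were assigned, as no hg19 annotation or genome was used here. Chi-square per degree of freedom between replicates was 1.25 for the POSR2 pair, 1.38 for the POSR1 pair and 1.91 to 4.10 among POS libraries. Each was counted as a library of its own, as labelled. These values cannot tell separate cultures from technical repeats. Residual degrees of freedom were 3 and prior degrees of freedom infinite in the fit of POSR2 against POS. Its spread was therefore shared fully across regions and not estimated for each region. Alternatives were other normalizations, filters, tools, thresholds, a replicate block and each library left out.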

Additional observations from a re-analysis of the deposited data

Results flagged for a closer look

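A direct test of POSR2 against POSR1 found that they differed at 21671 regions in edgeR (quasi-likelihood, Benjamini-Hochberg adjusted p under 0.05), which is the test of the difference between their departures from the same POS libraries. Of the regions named from it, the log2 difference of POSR2 over POSR1 was 6.44 at chr7:70193932-70194933, 4.76 at chr10:36560424-36561425, 4.68 at chr16:79104794-79105795, 4.28 at chr15:58684292-58685293 and 4.27 at chr7:158189553-158190554. It was -4.19 at chr11:75741418-75742419, -3.92 at chr10:134480682-134481683, -3.84 at chr14:29708729-29709730, -3.59 at chr8:22907373-22908374 and -3.57 at chr12:25852269-25853270. Groups of 2 or 3 libraries were not tested for outlying samples.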

How the results depend on the processing

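The 20 named regions of POSR2 against POS kept their direction and call under every alternative run, and of 475 values of named regions 474 kept direction and side of the threshold. The exception, chr8:128306251-128307252, was not called in any setting and ranged from -0.24 to 0.021 with a library left out, above 0 without POS replicate 1. Testing against a 1.5-fold change called 14339 regions, 6400 higher and 7939 lower. With each library left out, 21036 to 31290 regions were called against POS and 14526 to 16342 against POSR1. A replicate block on the labels' numbers called 21367 against POS (29760 without it) and 18491 against POSR1. Deviations of same-numbered libraries from their group means correlated at -0.07 and -0.08. The deviations of 2 POSR2 libraries mirror each other and hold counting noise, so this check cannot decide whether the numbers pair the samples. DESeq2's Wald test called 23186 and 14702, of which 7329 were higher than POSR1 (11337 by edgeR). Other normalizations, filters, the 0.01 threshold, a shared spread, robust edgeR and limma voom stayed within 1.5 times, and the share of higher among called regions against POS stayed between 44.6% and 51.3%.

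The share of higher regions with a JUNB site, 74.8%, was 76.2% with any overlap, 60.1% for 2-fold changes, 73.8% with DESeq2 size factors, 76.1% with total counts, 77.1% with a minimum count of 30, 74.0% with the replicate block, 66.0% against a 1.5-fold change and 72.2% to 76.5% with a library left out. For lower regions, 83.3% became 84.8%, 78.3%, 84.5% with total counts, 84.2% with DESeq2, 86.5% with a minimum count of 30, 85.9% with the block, 84.9% at a threshold of 0.01 and with limma voom, 82.2% against a 1.5-fold change and 81.3% to 86.1% with a library left out. The higher share stayed below the lower share in each of these, none of which held the level of regions fixed. For 2-fold changes the order was reversed in the lowest quintile of POS level (41.2% against 32.9%) but not in the highest (91.5% against 95.8%). The share moving with day 14, 80.5%, was 93.2% for 2-fold changes, 82.8% with DESeq2, 82.9% with the block, 82.4% at 0.01, 88.1% against a 1.5-fold change and 78.1% to 83.5% with a library left out. Causes of these shifts were not tested. Robust edgeR, limma voom and the shares under other fits were chosen after seeing the data. With 2 and 3 libraries a group and 4537976 counts in POS replicate 2, low-level regions are measured least precisely.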
